A study of Mus with 5 samples.

Results

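Binding of RARα and of BATF was described at 5 genes, Lif, Gfi1, Asb2, Dtx4 and Trim12a, in CD8 T cells with and without retinoic acid (RA). The study's text names Lif, Gfi1 and Asb2 as induced by RA, whereas Dtx4 and Trim12a appear only in a figure, in a group regulated by RA or RARα. Their peaks were those for which the gene annotation that comes with the 4 lists names 1 of these genes, alone or together with others. This gave 44 of the 27480 peaks in the lists, namely 9 of 1172 for RARα without RA (control), 5 of 597 for RARα with RA, 17 of 15812 for BATF control and 13 of 9899 for BATF with RA. Transcripts were not measured in these libraries, so whether the genes are induced by RA could not be checked against the label here, and all values concern binding. The study shows these genes partly because they carry RARα peaks in these libraries, so counts over them are descriptions and not independent evidence.

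RA, a metabolite of vitamin A, is the ligand of the nuclear receptor RARα, which binds DNA as a dimer with RXR and exchanges corepressors for coactivators when the ligand is bound. BATF is a basic leucine zipper protein of the AP-1 family that pairs with JUN proteins and cooperates with IRF4 at genes of activated T cells. Lif encodes leukaemia inhibitory factor, a cytokine of the interleukin-6 family that signals through LIFR and gp130, and Gfi1 encodes a zinc finger repressor of blood cell genes. Asb2, Dtx4 and Trim12a encode proteins of the ubiquitin system: a substrate subunit of Cullin-5 ligases that targets filamins, a Deltex ligase linked to Notch signalling, and a tripartite motif protein related to TRIM5.

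The libraries came from wild-type mouse CD8 T cells, labelled as naive cells isolated from spleen, which were activated for 24 h with anti-CD3 and anti-CD28, rested for 24 h in 100 U/ml IL-2 and then kept for 1 h without RA or with 50 nM RA. The treatment labels name other interleukins than the protocol, and the labels do not give the number or age of the mice or say whether the cells for the normal rabbit IgG library received RA. The authors called each list on 2 pooled alignment files against that 1 IgG library, so each condition is 1 pool. The spread between replicates is therefore unknown, and the conditions were compared without a test. The pools held 16424269 to 23110180 fragments, with the smallest number in BATF with RA, and the IgG library held 11410673. Each peak carries a pileup, which is the number of fragments covering its summit, and a fold enrichment, which relates the pileup to the local level of the IgG library, with 1 added to each. For comparisons between pools the summit fragments were scaled to a pool of 10000000 fragments (scaled fragments), and the intervals given are exact 95% intervals that cover counting error only. A chromatin library does not show which genes a cell expresses, so the cell type label could not be tested by its markers: BATF control peaks were assigned to 5 of 5 CD8 T cell marker genes and to 4 of 7 marker genes of other spleen cells, while 49.1% of all 21900 protein-coding genes in the RefSeq table were named in that list.

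The 44 peaks merged into 20 separate sites. RARα peaks were listed at 10 of them and BATF peaks at 17, with 7 sites holding both factors, 10 for BATF without RARα and 3 for RARα without BATF. At 2 sites, intron 2 of Lif and the promoter of Gfi1, all 4 lists held a peak. The same site counts were not made over the whole lists, so those given here only describe the loci. Among all RARα RA peaks, 12.1% overlapped a BATF RA peak. By condition, 6 sites had a peak in the BATF control list and no other, 1 had a peak only in RARα with RA, and no site had a peak only in RARα control or only in BATF with RA. The map of peaks along each gene shows these sites, named below by the intron, the promoter or the distance to the gene.

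**Figure D1:**
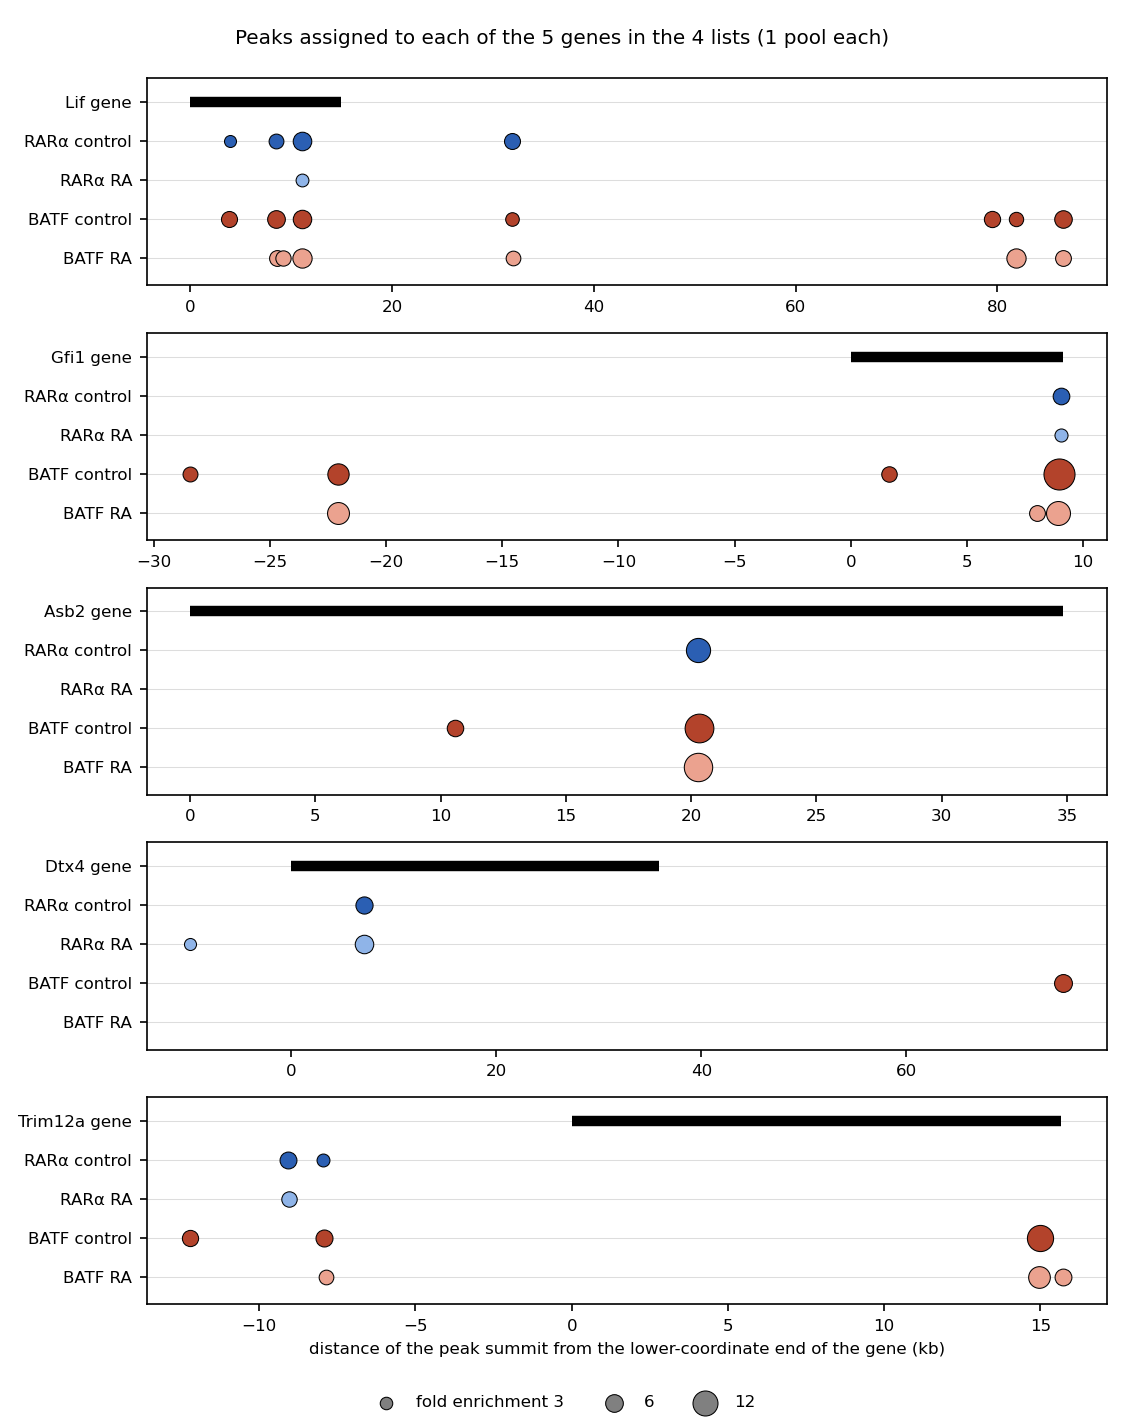
Summits of the 44 peaks assigned to the 5 genes, with 1 panel per gene. The horizontal axis is the distance in kb from the lower-coordinate end of the gene, the black bar is the gene body, each row is 1 peak list and the area of a point is proportional to its fold enrichment. Lif has the most peaks in 3 of the lists, Asb2 has no peak in the RARα RA row, and Dtx4 has none in the BATF RA row.

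Lif occupies positions 4257568 to 4272514 of chromosome 11 (mm10). Its 4 RARα control peaks were found at 3 places inside the gene and 1 place beyond it, while RARα with RA had 1 peak. Few genes had as many, since 1.19% of the 1772 genes named in the RARα control list had at least 4 peaks, and as many BATF peaks as Lif (7 in control, 6 with RA) were found at 3.66% and 1.67% of the genes of those lists. In intron 1 (4261387 to 4261641) the RARα control summit held 10 fragments with a fold of 2.77, close to the lowest number that could be called, and the BATF control peak around it held 19. The promoter of a shorter Lif transcript, which lies inside the gene (4265920 to 4266641), held 18 fragments of RARα control with a fold of 4.21. No RARα peak was listed with RA at either place. BATF was present there with 27 fragments in control and, with RA, as a pair of narrower peaks of 15 and 14 fragments.

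The strongest RARα site of Lif was classed as promoter by the annotation, although its detailed entry places it in intron 2 of the shorter transcript. RARα had 19.9 scaled fragments in control (14.5 to 26.6) and 12.0 with RA (7.92 to 17.5), and the 2 intervals overlap. BATF had 22.5 (16.8 to 29.5) in control and 25.6 (18.4 to 34.6) with RA at the same place. The BATF summits of the 2 conditions lay 21 bp apart and the RARα summits 61 bp apart. The IgG level at this site was 2.07 times the background of the list in RARα control and 2.67 times in RARα with RA, and the part of the raised IgG level in these values was not tested.

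Beyond the gene, an intergenic site 16633 bp away (4289147 to 4289631) held 38 RARα control fragments with a fold of 4.91 over an IgG level of 2.41 times background, and no RARα peak with RA. BATF had 35 fragments there in control and 21 with RA, or 15.1 and 12.8 scaled fragments. Another 3 sites were bound by BATF alone, at distances from 64188 to 71484 bp of Lif. Hormad2, a gene of meiotic chromosomes, lay nearer to all 3 of them, between 1556 and 8745 bp away in the control list. One of these, 66860 bp from Lif, had 39 BATF fragments in control and 31 with RA, or 16.9 and 18.9 scaled fragments. Its fold enrichment was 3.95 in control and 7.11 with RA, and the recovered IgG level at the summit was 9.0 and 3.5. These levels are on different scales, because the same IgG library was scaled by 1.0 for BATF control and by 0.7197 for BATF RA.

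Gfi1 lies on chromosome 5 from 107716655 to 107725805, and its promoter had listed peaks of both factors in both conditions. The RARα peak with RA passed the authors' p-value cutoff, but its deposited q-value was 0.436. RARα at the promoter (control peak 107725504 to 107726218) had 21 fragments in control and 13 with RA, or 9.27 (5.74 to 14.2) and 5.78 (3.08 to 9.89) scaled fragments. BATF covered 2640 bp in control, between 107723677 and 107726316, its summit reaching 78 fragments and a fold of 18.5. With RA the same stretch held a main BATF peak of 1236 bp with 35 fragments and a fold of 11.0, and a separate one of 430 bp with 19 fragments. The promoter values of both factors were thus lower with RA, and the BATF intervals, 26.7 to 42.1 in control and 14.8 to 29.6 with RA, overlap at their ends.

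Away from the promoter, Gfi1 had BATF peaks only. A distal site about 22 kb from the gene (control peak 107694170 to 107694667) held 52 fragments in control and 48 with RA, or 22.5 and 29.2 scaled fragments, and its summits differed by 8 bp. A site in the last intron, classed as exon by the annotation, held 17 fragments in control, and a site 28000 bp away held 23. Neither had a peak in the RA list. At the Gfi1 sites bound by BATF alone, RARα would have needed 9 to 15 fragments to be called in either condition, so weaker RARα binding could not have been seen.

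Asb2 lies on chromosome 12 from 103321142 to 103356001 and had 1 RARα peak, in intron 2 (103341066 to 103341573), in the control list only. With 47 fragments and a fold of 11.2 it ranked 9 among the 1172 RARα control peaks, the highest rank of any peak assigned to the 5 genes in any list. BATF at the same place had 69 fragments in control and 48 with RA, which is 29.9 (23.2 to 37.8) and 29.2 (21.5 to 38.7) scaled fragments, with folds of 15.9 and 15.5. The BATF values were therefore nearly equal in the 2 pools at a place where RARα was called in only one of them. The IgG level there was 1.07 to 1.17 times background in the 3 lists with a peak. A second Asb2 site, in intron 6 (103331185 to 103331871), held 36 BATF fragments in control and no other peak.

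Dtx4 lies on chromosome 19 from 12466329 to 12502179. Its site in intron 7, classed as exon by the annotation, held RARα in both conditions, with 21 fragments and a fold of 5.67 in control (12473056 to 12473774) and 25 fragments and a fold of 6.58 with RA (12473061 to 12473669). Among the 4 RARα sites with a peak in both pools, this was the only one with a higher value with RA, and the RA peak ranked 11 among the 597 of its list. No BATF peak was listed near it: the nearest was 67433 bp away in control and 97161 bp away with RA. A BATF call at this site would have needed 14 fragments in control and 11 with RA, so weaker BATF binding could not have been seen. Having 2 RARα RA peaks put Dtx4 among 6.17% of the genes named in that list. The second was called only with RA, in an LTR repeat 9693 bp from the gene (12456281 to 12456636), where Mpeg1, which encodes a pore-forming protein of macrophages, was nearer at 4134 bp. It held 10 fragments with a fold of 2.78, and 10 fragments would have been needed for a call in control. The only BATF peak assigned to Dtx4, 39028 bp away in control, lay nearer to Fam111a.

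Trim12a lies on chromosome 7 from 104299893 to 104315558, within a cluster of Trim genes whose copies resemble each other, so reads of this region may be shared between copies and the assignment is uncertain. Its promoter, shared with the non-coding Gm15133, had listed peaks of BATF and none of RARα, with 79 BATF fragments and a fold of 13.2 in control (104313969 to 104316154). With RA the promoter held 47 fragments and a fold of 9.03 (104314036 to 104315284), and a narrow second peak of 18 fragments. In the RARα control list 2 peak numbers are missing between the listed neighbours of this promoter, which lie 21831 bp and 6776423 bp from it. The missing peaks may lie anywhere in that stretch, so a RARα peak left out at the promoter cannot be told apart from no call. RARα was called 8906 bp from the gene with 48 fragments in control and 35 with RA, at 21.2 (15.6 to 28.1) and 15.6 (10.8 to 21.7) scaled fragments. The IgG level there was 2.76 times background in control and 2.33 times with RA. No BATF peak was listed at this site, where a call would have needed up to 24 fragments in control and 19 with RA. About 1 kb further on, in an LTR repeat, RARα control had 13 fragments with a fold of 3.21, and BATF had 24 in control and 13 with RA. The annotation names 7 genes for each of these peaks but not Trim5, which by the RefSeq table was nearer than Trim12a. A further BATF control peak 12097 bp away, with 25 fragments, overlapped Trim5.

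Of the 9 RARα control peaks, 4 overlapped a RARα peak with RA (44.4%), against 8.45% of all RARα control peaks. Within 5 kb, the distance used in the study, the counts were 6 of 9 and 10.2% of all. The other 2 of these 6 lay in the promoter of Lif and the LTR repeat near Trim12a, where the RA peak that counts belongs to the neighbouring site. In the other direction, 4 of the 5 RARα RA peaks had a control peak within 5 kb, against 19.6% of all. The genes Lif, Gfi1, Dtx4 and Trim12a, 4 of 5, were named in both RARα lists, compared with 16.4% of all genes named in the control list. All 5 were named in both control lists, against 81.9% of the genes with a RARα control peak. The 9 RARα control peaks stood high in their list, with a median fold at the 92.4 percentile. The shares of all peaks were not matched for strength, so whether the 5 genes differ from equally strong peaks was not tested.

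Whether a missing peak could have been seen was described from the number of fragments that the authors' cutoff demands at the local IgG level. If the control rate had held, the 5 control sites without a RARα peak in the RA list would have given 9.92 fragments in intron 1 of Lif, 17.9 at its inner promoter, 37.7 at the site 16633 bp away, 46.6 in intron 2 of Asb2 and 12.9 in the repeat near Trim12a. The numbers that a call needs there were at most 9, 11, 19, 10 and 10. Intron 2 of Asb2 thus stood 4.66 times above the level of a call. The absence of a peak there means an RA summit of fewer than 10 fragments, if the stretch above the cutoff was long enough for a call. That level is about 21.5% of the number expected at the control rate. It is a ratio of counts that leaves out counting error, so the RA rate itself may be higher than this. For intron 1 of Lif (1.1 times) and the repeat near Trim12a (1.29 times), a small difference in either pool would have been enough to lose the call. Over the whole list, 1073 RARα control peaks had no overlapping RA peak and their median was 1.24 times. Counting Asb2 intron 2 itself, 13 RARα control peaks stood at least that high, and 9 of them overlapped an RA peak.

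The 4 RARα control sites that kept a peak stood 2.08 to 2.98 times above the call level, taken at the IgG level of the RA peak. For sites without an RA peak the highest IgG level of the other lists was used. The Lif site 16633 bp away stood at 1.98 times with 19 fragments needed, but at its lowest IgG level 15 were needed. Its order relative to the kept sites is therefore not settled. Asb2 intron 2, with 10 needed at either level, stood above all of them. Numbers are missing from the peak names of each list, 130 in RARα with RA, so some called peaks are not in the lists used here. At intron 1 and the inner promoter of Lif 1 such number falls before the next listed peak, and no listed peak precedes these sites on the chromosome. The missing peak may therefore lie elsewhere, and a peak left out of the list cannot be told apart from no call. At the Asb2 site, at the site 16633 bp from Lif and at the repeat near Trim12a no number is missing.

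**Figure D2:**
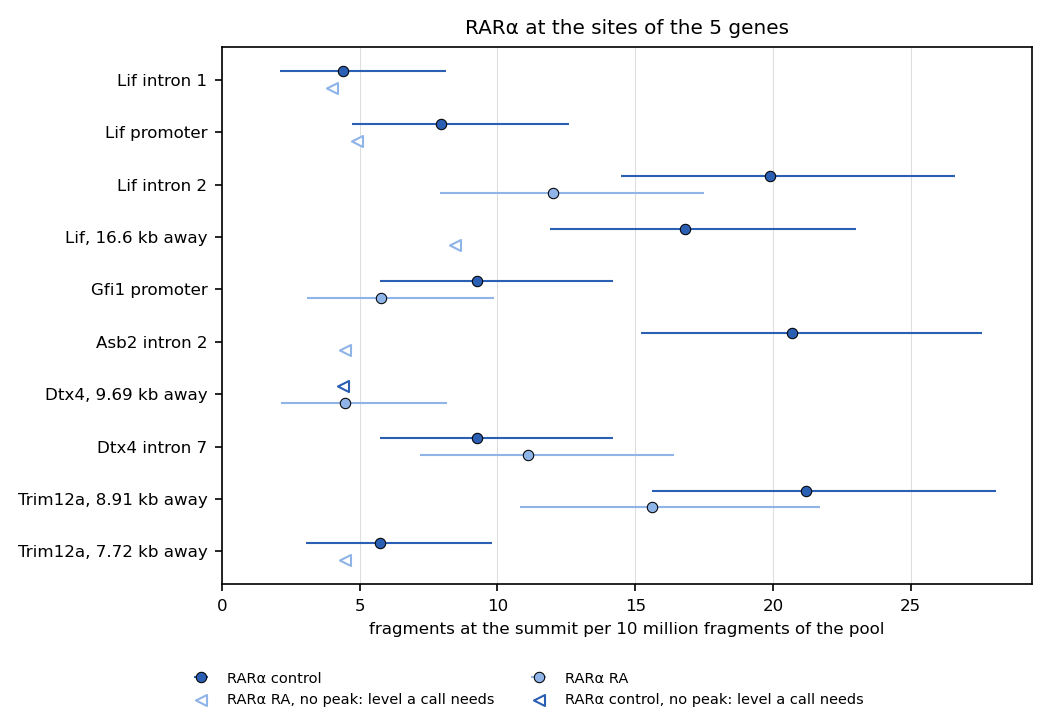
RARα at the 10 sites of the 5 genes where it was called. The horizontal axis is the number of fragments at the summit per 10000000 fragments of the pool, filled points are called peaks in control (dark) and with RA (light), bars are exact 95% Poisson intervals for counting error, and open triangles mark the level a call would have needed where no peak was listed. At Asb2 intron 2 the control value of 20.7 lies far above the needed 4.45.

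BATF control peaks overlapped a BATF RA peak in 10 of 17 cases (58.8%), against 54.4% of all BATF control peaks, and within 5 kb in 13 of 17, against 69.9%. All 13 BATF RA peaks had a control peak within 5 kb, as did 96.3% of that list. The BATF counts at the 5 genes were therefore near those of the lists as a whole. The 7 BATF control sites without an RA peak were intron 1 of Lif, the site 64188 bp from Lif, intron 6 of Asb2, the site 39028 bp from Dtx4, the last intron of Gfi1, the site 28000 bp from Gfi1 and the site 12097 bp from Trim12a. They held 17 to 36 fragments and would have stood 1.1 to 1.60 times above the call level of the shallower RA pool at the control rate, whereas the 10 sites that kept a peak stood 1.55 to 5.04 times above it, with a median of 2.08. The ranges overlap, and depth and the loss of these sites cannot be told apart.

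**Figure D3:**
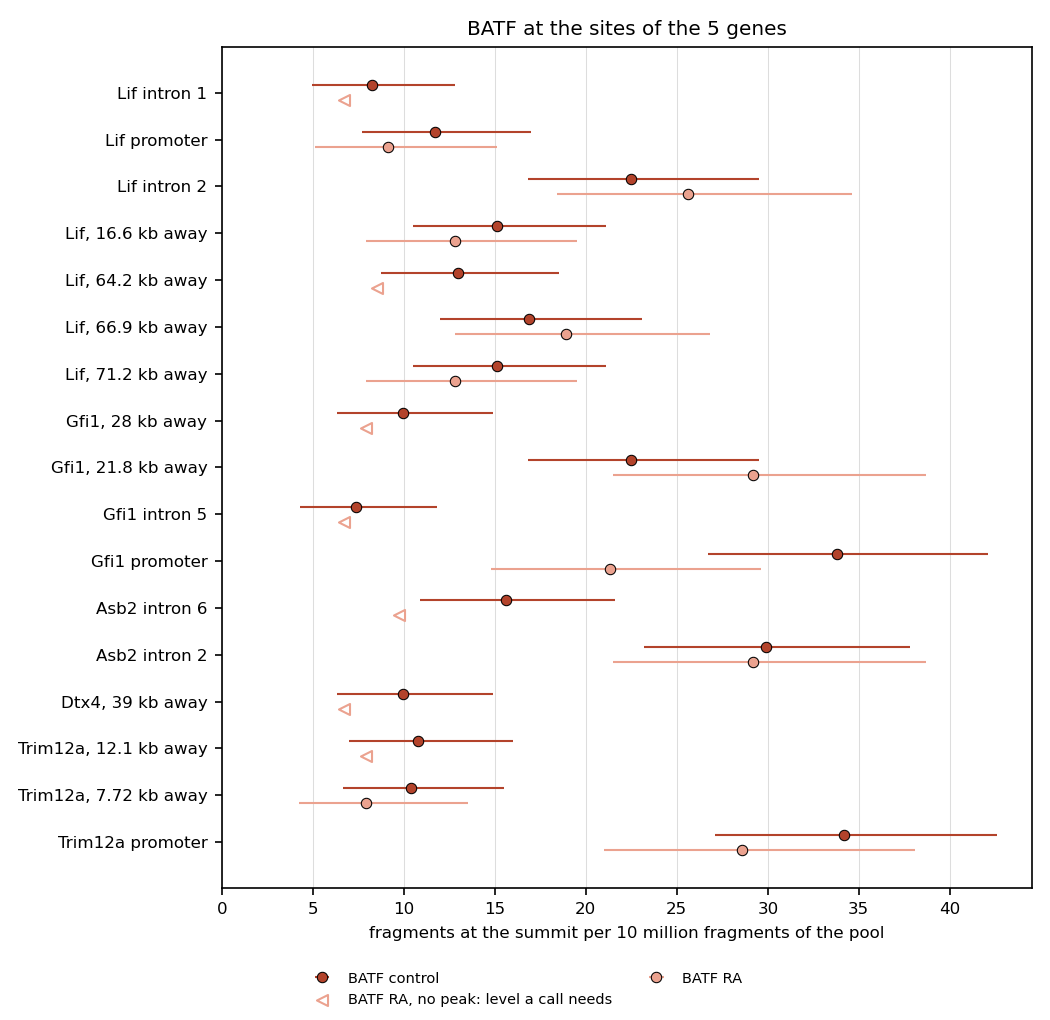
BATF at its 17 sites, drawn as in the RARα plot, with control dark and RA light. Axis: fragments at the summit per 10000000 fragments of the pool, with exact 95% Poisson intervals, and open triangles at the level a call would have needed with RA. All 7 triangles lie below the control value of their site, by a factor of at most 1.60, and the intervals of the 2 conditions overlap at all 10 sites with both.

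At the 14 places where control and RA peaks of the same factor overlapped, the ratio of scaled summit fragments, RA over control, could be formed. For RARα it was 0.605 (0.361 to 0.996) in intron 2 of Lif, 0.624 (0.287 to 1.31) at the Gfi1 promoter, 0.735 (0.461 to 1.16) near Trim12a and 1.20 (0.645 to 2.25) in intron 7 of Dtx4. The fold enrichment was lower with RA in 3 of these 4 pairs, against 71.7% of all 99 overlapping RARα pairs. The median ratio over all 99 was 0.784 with quartiles of 0.612 and 1.12, so the 4 values lay within or next to the usual range. Among the 120 RARα pairs within 5 kb, 82.5% had a lower ratio than intron 7 of Dtx4 and 20.8% a lower one than intron 2 of Lif.

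For BATF the ratio ranged from 0.631 at the Gfi1 promoter (0.411 to 0.952) to 1.30 at the distal Gfi1 site (0.859 to 1.96), so the lowest and the highest value belonged to the same gene. It was 1.14 (0.738 to 1.74) in intron 2 of Lif, 0.979 (0.663 to 1.44) in intron 2 of Asb2 and 0.837 (0.571 to 1.22) at the Trim12a promoter. Of the 10 pairs, 6 had a lower fold with RA, against 75.5% of the 8601 overlapping BATF pairs. The median ratio of the 10 pairs, 0.844, equalled that of all pairs, whose quartiles were 0.719 and 0.989. Of the 14 intervals, which are not adjusted for their number, those of RARα in intron 2 of Lif and of BATF at the Gfi1 promoter left out 1. With 1 pool per condition, the yield of the precipitation and a change in binding cannot be told apart.

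**Figure D4:**
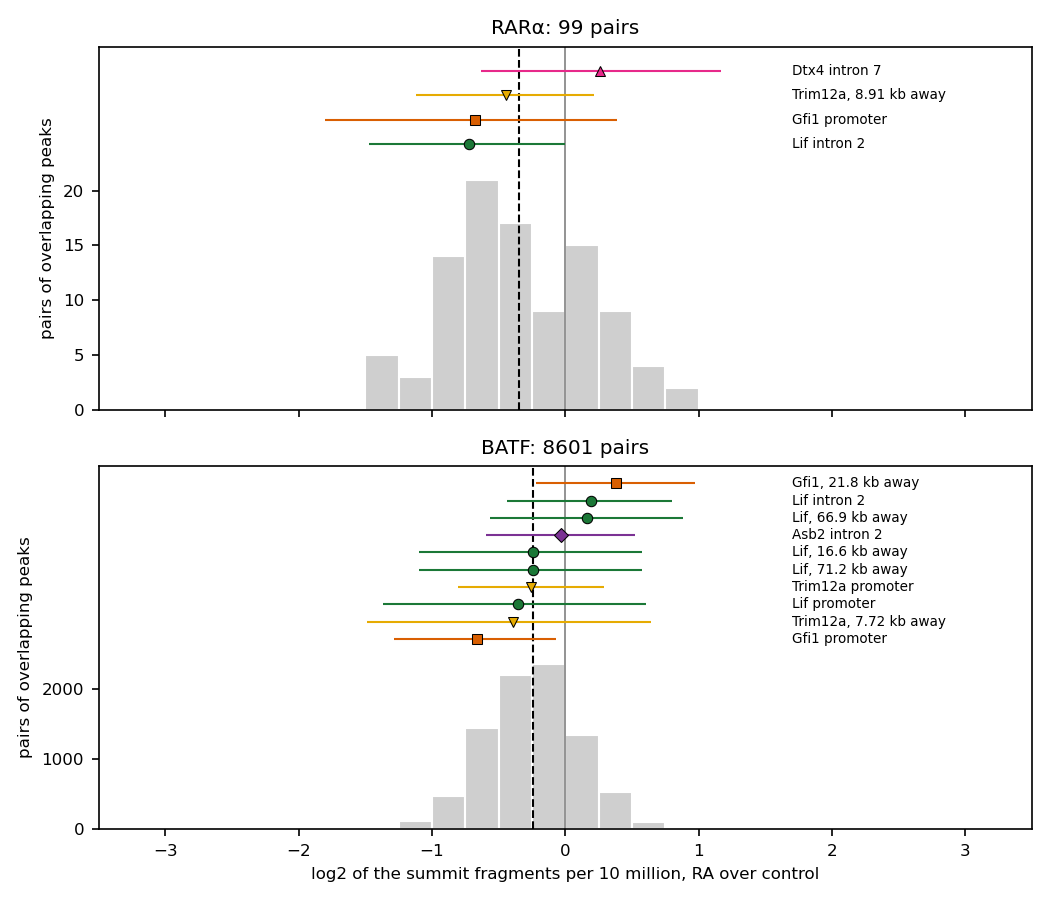
Distribution of the log2 ratio of scaled summit fragments, RA over control, for all pairs of overlapping peaks of RARα (top) and BATF (bottom), in grey. The dashed line is the median and the thin line marks no difference. Coloured points with 95% counting intervals are the pairs at the 5 genes, placed above the bars for legibility. The RARα ratio in intron 2 of Lif is 0.605 and the BATF ratio at the Gfi1 promoter is 0.631, while the other 12 intervals cross the thin line.

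RARα and BATF lay together at most of the RARα control peaks of the 5 genes. Within 5 kb, 8 of 9 had a BATF control peak (88.9%), against 61.9% of all RARα control peaks, and overlapped 7 of 9, against 53.4%. The summits at these 7 places were 15 to 76 bp apart. They were closest at the inner Lif promoter and farthest at the Gfi1 promoter. Of all 626 overlapping pairs in the control lists, 295 (47.1%) had summits within 100 bp and the median distance was 110 bp. The ninth peak, in intron 7 of Dtx4, had no BATF peak near it, and the stronger RARα site near Trim12a had its nearest BATF peak 826 bp away, at the repeat.

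With RA, 3 of 5 RARα peaks had a BATF peak within 5 kb, against 16.4% of all RARα RA peaks, and 2 overlapped one, against 12.1%. These were intron 2 of Lif, with summits 24 bp apart, and the Gfi1 promoter, with 162 bp. The 3 peaks that did not overlap BATF were both Dtx4 peaks and the one 8920 bp from Trim12a. Seen from BATF, 7 of the 17 control peaks overlapped RARα, against 3.92% of all, and 2 of the 13 RA peaks did, against 0.727%. The study shows these genes partly because they carry RARα peaks, so the shares of BATF peaks with RARα are not independent of that choice. With counts of 5 to 17 peaks, several of which share a gene, these shares are descriptions of the loci.

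By strength, the RARα control peaks of the 5 genes stood high in their list and the BATF peaks stood in the middle of theirs. Because the study shows these genes partly for their RARα peaks, the RARα ranks are not independent of that choice. Of the 9 RARα control peaks, 8 had a fold above the list median of 3.09, and their median fold of 5.32 lay at the 92.4 percentile. For RARα with RA, 4 of 5 peaks lay above the list median of 2.87. For BATF, 9 of 17 control peaks and 7 of 13 RA peaks lay above the medians of 5.40 and 5.29. At the top were the BATF peaks of the Gfi1 promoter (97.9 percentile in control), Asb2 intron 2 (96.9) and the Trim12a promoter (94.8). Those at the bottom were the Lif site 16633 bp away (9.78) and the one 66860 bp away (17.1), both over an IgG level of 3.15 times background. An IgG level of at least 2 times background was found at 3 of 9 RARα control, 2 of 5 RARα RA, 4 of 17 BATF control and 4 of 13 BATF RA peaks, compared with 13.8%, 8.88%, 33.0% and 30.3% of the lists.

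**Figure D5:**
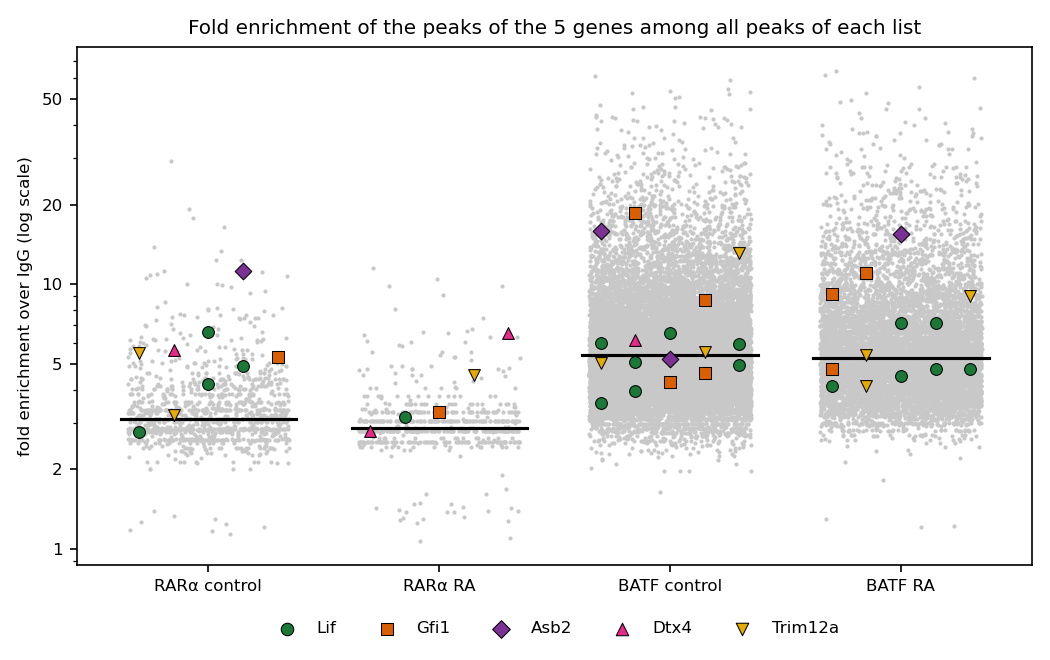
Fold enrichment over IgG, on a log scale, of every peak in each list (grey, spread sideways at random) and of the peaks assigned to the 5 genes (coloured symbols). Black lines are the list medians, from 2.87 in RARα RA to 5.40 in BATF control. Asb2 is the highest of the coloured symbols in RARα control and in BATF RA, at 11.2 and 15.5, and the Gfi1 promoter is the highest in BATF control at 18.5.

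Assignment to a gene was a matter of distance for many of these peaks. Of the 44 peaks, 24 touched the gene they were assigned to, 31 lay within 10 kb of it and 13 lay farther, up to 71484 bp. For 22 peaks the annotation named several genes, with 25 other names in all, and for 14 the nearest protein-coding gene in the RefSeq table was not the gene of interest. The shared genes included Osm, a cytokine of the same family as Lif, named at the sites 16633 to 66860 bp from Lif, and Evi5 beside Gfi1, named at both distal BATF sites. Evi5 lay 49946 to 56140 bp from those 2 sites, and 4930428O21Rik, also named there, lay 3363 to 9557 bp away. For the site 28000 bp from Gfi1 the nearest protein-coding gene was Rpap2, at 26175 bp. By class, 16 peaks were at promoters and 19 were intergenic. For 8 peaks the class and the detailed entry of the annotation differed: those in intron 2 of Lif, intron 7 of Dtx4 and the last intron of Gfi1, and the main BATF RA peak of the Gfi1 promoter, whose entry reads exon 1.

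Peaks were also counted at other genes of these pathways. Among 9 other genes of the RA-regulated group of the study, 8 had a RARα control peak, 7 a RARα RA peak, and 8 a BATF peak in each condition. Gimap4 and Gimap7 of this group had the same highest folds in RARα control (9.92), RARα RA (4.92) and BATF control (8.1). They may therefore be counted for the same peaks. Of all protein-coding genes in the RefSeq table, 7.33% were named in RARα control, 3.21% in RARα RA, 49.1% in BATF control and 38.7% in BATF RA. This group was chosen by the study partly from these libraries, so its counts are not independent evidence. Among 15 genes of RA receptors, RA metabolism and conventional RAR targets, 1 had a RARα control peak (Rara, fold 3.19), 2 had a RARα RA peak (Rarb, 2.53, and Tgm2, 3.29), 7 had a BATF control peak and 4 a BATF RA peak. The receptor subunits for Lif differed: Il6st, which encodes gp130, had 13 BATF peaks in control and 8 with RA, with a highest fold of 15.1 and 13.9, and no RARα peak, while Lifr had none in any list. Osm had 2 RARα control peaks, 1 of them shared with Lif.

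For Asb2, the ligase scaffold gene Cul5 had 1 RARα peak with RA at a fold of 2.53, and the filamin gene Flna had BATF peaks with folds of up to 16.4 in control and 12.9 with RA. Of the 5 relatives of Dtx4, Dtx1 alone had a RARα peak, in control at a fold of 2.77, while Dtx2, Dtx3, Dtx3l and Notch1 had BATF peaks in both conditions. Notch1, the receptor that Deltex proteins act on, had BATF folds of up to 20.0 in control and 13.1 with RA. Gfi1b, the close relative of Gfi1, had no peak in any list. Among the 7 relatives of Trim12a, the RARα control peaks of Trim12c, Trim30b and Trim34a were the same peaks as those of Trim12a.

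The genes most like each of the 5 were found by the Euclidean distance between log2 highest folds over the 4 lists (0 where a list had no peak), among about 12764 genes. Nearest to Lif was Rbks with highest folds of 5.70, 2.82, 6.63 and 6.20 in RARα control, RARα RA, BATF control and BATF RA, at a distance of 0.34, followed by Vps26a and Gm7904. Nearest to Gfi1 was Ccdc80 (0.24), then Atg3 and Slc35a5. Asb2, with RARα in control only and strong BATF in both conditions, was nearest to Mtmr3 (0.26), which had folds of 10.1, none, 18.0 and 14.6, then Selp and I730028E13Rik. Trim12a was nearest to Fam117a (0.26), Pde4b and Kcnn4. Dtx4 had no close match, the nearest being St6galnac6 at 0.64, before P4ha2 and Pdlim4. With 4 values per gene, and several genes sharing peaks, the likeness is a description.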

How the data were processed

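ChIP-seq libraries of RARα and BATF from mouse CD8 T cells were used, 1 list for each factor and condition. Per the methods and file headers, the authors aligned paired-end reads with Bowtie2 to mm10, took out duplicates and ran the peak caller MACS 2.2.7.1 in paired-end mode (effective genome size 1870000000 bp) on 2 pooled files against 1 IgG file, at p-values of 0.001 (RARα) and 1e-05 (BATF). Whether the 2 files are replicates is not given in the sources used here. HOMER is among the tools in the submitters' processing notes. The deposited pileup is a signal, in fragments at the summit (scaled by 0.9875 in BATF control). The deposited fold enrichment is a ratio to IgG with 1 added to both. Deposited p-values and q-values are on the -log10 scale.

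The IgG level was recovered from pileup and fold. With it, a Poisson tail gave back the deposited -log10 p-value within 0.1 for 99.8% to 100% of peaks, and the same rule gave the fragments a call needs. Pools were compared at 16424269 to 23110180 fragments, scaled to 10000000, with exact Poisson intervals and, for ratios, exact conditional binomial 95% intervals. Shares were counted within 5 kb, after the methods, and by overlap. Peaks were paired by nearest summit. Gene positions came from a RefSeq table for GRCm38.p6, whose protein-coding genes, matched by symbol or synonym, gave the share of genes named in each list. Scripts were tested on simulated data and run with matplotlib 3.10.9, scipy 1.17.1, pandas 2.3.3 and numpy 2.4.6 under Python 3.11.15.

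The 5 genes and all lists were chosen with earlier results of these data known. Named genes were the 5 genes, genes sharing a peak entry with them, genes of fixed lists of relatives, RA pathway and marker genes, and for each of the 5 the 3 genes most like it over the 4 lists. Alternatives were stricter p, q and fold cutoffs, other distances, other gene assignments and other measures of enrichment. Motifs were not analysed here, and no sequence is shown, because no genome of this build was used.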

Additional observations from a re-analysis of the deposited data

Results flagged for a closer look

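In intron 2 of Lif, the ratio of scaled summit fragments, RA over control, was 0.605 for RARα (95% counting interval 0.361 to 0.996) and 1.14 for BATF (0.738 to 1.74). The place was singled out because the 2 factors differ in direction between the conditions at overlapping peaks. With 1 pool per factor and condition the difference between the factors was not tested. The BATF interval includes 1, and the IgG level at this site was raised in all 4 lists, to between 2.07 and 2.67 times background.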

How the results depend on the processing

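No paired analysis was possible because each condition has 1 list, called on pooled files, and the result comes from no test. For the same reason no replicate could be left out. Of 44 counts recomputed under another choice, 37 stayed within 1.5 times the reported count and 7 moved by more. Whether a comparison changed direction was not scored. Without the 1 added in the fold enrichment, 6 rather than 8 of the 13 BATF pairs within 5 kb had a lower value with RA. A fold enrichment of at least 5 left 5 RARα control, 1 RARα RA and 7 BATF RA peaks at the 5 genes, out of 9, 5 and 13. A q-value of at most 0.05 left 3 RARα RA peaks, without those at the Gfi1 promoter and 9693 bp from Dtx4. Limiting BATF control to peaks within 10 kb of the gene left 9 of 17, and requiring the gene to be named first or alone left 9 in BATF control and 8 in BATF RA. The alternatives of pairing peaks by midpoint and of using overlapping pairs only were chosen after seeing the data. The search for motifs in peaks and around summits was not run, because no genome of this build was used. Depth limits what could be seen: a RARα pileup under 9, or a BATF pileup under 12 in control and under 10 with RA, could not be called even at background IgG.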
